A study of Mus musculus with 6 samples.

Results

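The genes described here encode non-muscle actin, the proteins that bundle, move and turn over actin filaments, and the proteins that tie filaments to integrins at focal adhesions. They were chosen by name: 39 mouse genes were listed, and all 39 were found among the 45706 genes of the count table and were abundant enough to be tested. RNA was measured in primary fibroblasts grown out of digested lungs of wild-type mice, in 3 control samples and in 3 samples exposed for 24 hours to 30 ng/ml of recombinant mouse DKK1. Dickkopf-1, or DKK1, is known as a soluble Wnt antagonist that acts on the co-receptors LRP5 and LRP6. The strain, sex and age of the mice, how many animals gave each sample and what the control cells received are not given in the sources used here, so p-values measure the spread between these samples, which may be technical.

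Actin filaments push the cell edge forward and, with non-muscle myosin II sliding on them, pull on the surroundings. Tropomyosins coat the filaments, alpha-actinins and filamins crosslink them, and talin, vinculin, kindlin and the ILK-PINCH-parvin complex fasten them to integrins. In lung fibroblasts these structures are known for wound contraction and for the tension that accompanies scarring, and many of their genes are known targets of the transcription factor SRF.

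Transcripts of non-muscle myosin II and of the filament crosslinkers were slightly lower in DKK1-treated cells, while those of the 2 non-muscle actins were at nearly the same level. Treating the samples as unpaired, 1 of the 39 genes was called, Myh10, which was lower (edgeR quasi-likelihood test, adjusted p under 0.05 over all 14635 genes tested; 0.198% of all tested genes were called lower and 0.697% higher). With the replicate number of the labels as a block, 17 of the 39 fell and 1 rose, against 4.46% of all tested genes called lower and 4.96% called higher in that fit. The labels do not state what a replicate number stands for. In what follows, the control of a DKK1 sample means the control sample with the same number. The 39 are abundant genes: among the 4532 tested genes with a mean level at or above that of Ezr, the least abundant of the 39, 9.6% were called lower and 8.52% higher with the block. Other unblocked tools called 7 of the 39 lower (DESeq2; 0.356% of its genes) and 2 (limma-voom; 0.212%), and 13 of the 39, all lower, had an unadjusted edgeR p under 0.05, as did 10.6% of all tested genes. The falls in the blocked fit were small, from 5.67% (Pdlim5) to 17.6% (Myh10), with a median of 8.1%.

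The direction was shared more widely than the calls. In the blocked fit the log2 fold change was below 0 in 34 of the 39 genes, against 50.2% of all tested genes. Its median was -0.06, against -0.0006 over all tested genes. The mean CPM was lower after DKK1 in 32 of the 39. Many of these changes were close to 0, and the sign turned for 10 of the 39 in at least 1 other fit. In unblocked fits that left out a single sample, the median was -0.084 to -0.031. The DKK1 sample was the lower one in all 3 same-numbered pairs for 22 of the 39 genes, against 19.5% of all tested genes, and the higher one in all 3 for 4 genes, against 22.3%. For 10 of the 39, every DKK1 sample lay below every control sample, against 7.14% of all tested genes, and for 0 of the 39 did every DKK1 sample lie above, against 9.4%. The shares of all tested genes in this paragraph were not matched for abundance, and the 39 are abundant genes. Together the 39 genes held 4.6%, 4.59% and 4.77% of all counts in control replicates 1, 2 and 3, and 4.38%, 4.38% and 4.63% in DKK1 replicates 1, 2 and 3. The DKK1 share was lower in each pair, and the groups overlapped through replicate 3, which was the highest sample of its group.

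**Figure D1:**
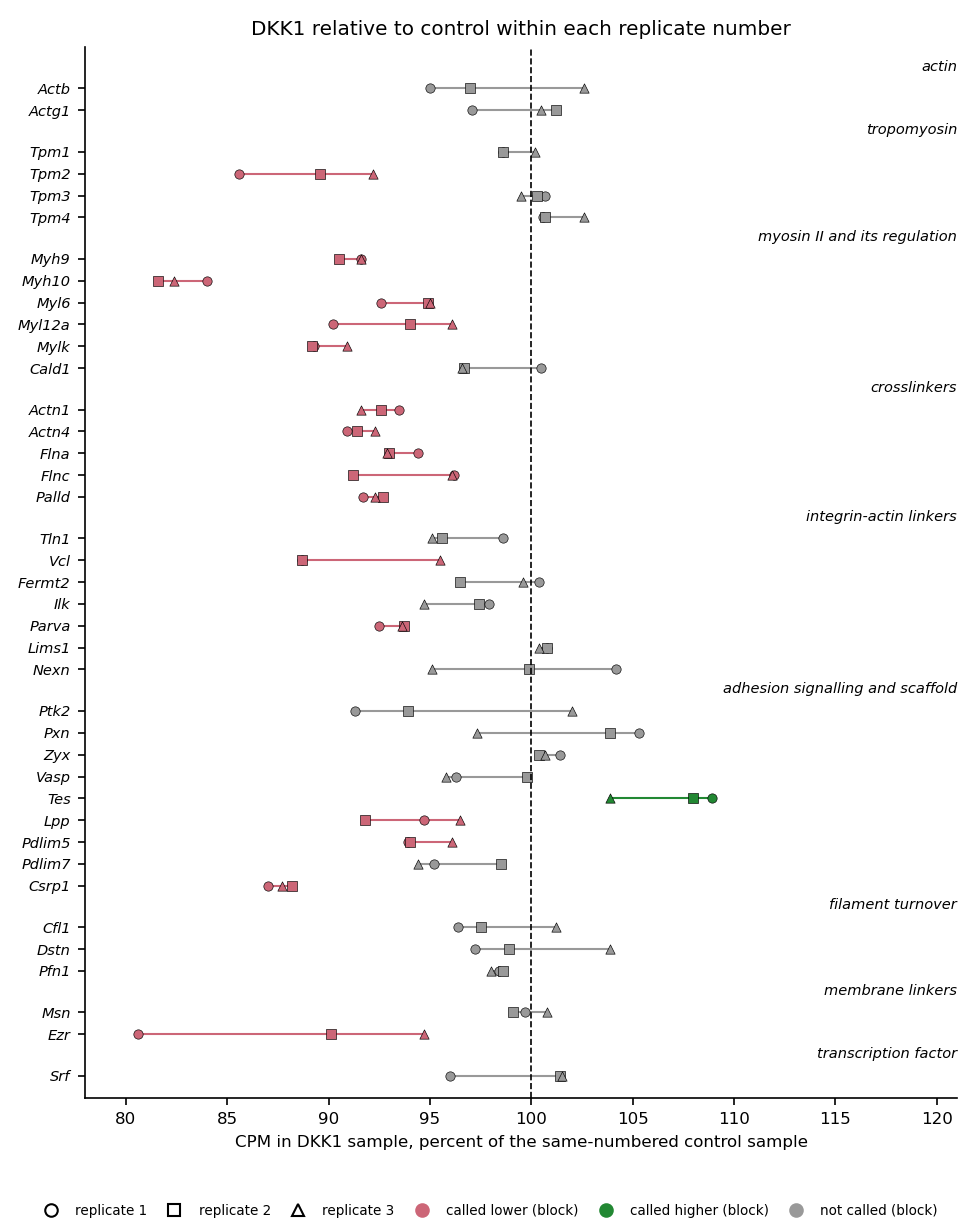
Level of each of the 39 genes in the DKK1 sample as a percent of the same-numbered control sample (x axis), grouped by role; circles, squares and triangles are replicates 1, 2 and 3, and color marks the call of the blocked fit. All 5 crosslinkers and 5 of the 6 myosin II genes lie left of 100% in every pair, while Actb and Actg1 straddle it.

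Library totals ranged from 22565917 to 34727102 counts, and the smallest count of any of the 39 genes in any library was 1070, in Ezr. Fibroblast markers dominated the marker lists, with a summed level of 10225 to 11726 counts per 1000000 counts of the library (CPM) in control and 9633 to 11148 CPM in DKK1 samples. With the block 3 of the 7 fibroblast markers fell (Col1a1, Col1a2 and Thy1) and 2 rose, namely Dcn, by 0.62 on the log2 scale (edgeR adjusted p = 9.73e-06), and Pdgfra, by 0.27 (adjusted p = 9.74e-07). The part of these shifts in the results was not tested. Summed epithelial markers lay between 40.2 and 124.8 CPM in controls and between 37.6 and 125.3 CPM after DKK1, with 0 of the 6 tested called with the block, and endothelial markers at 22.8 to 57.3 and 20.9 to 58.1 CPM, with 0 of 5 called. Leukocyte markers lay at 383.7 to 774.2 and 410.6 to 791.9 CPM, with 1 of 5 tested called lower (Csf1r) and 1 higher (Adgre1). Most of the leukocyte sum was Lyz2, at 340.0 to 722.2 CPM over all samples, while Ptprc stood at 7.08 to 13.5 CPM. Mesothelial markers lay at 9.73 to 28.1 and 10.4 to 31.6 CPM, with 0 of 4 called. The T cell marker Cd3e was at 0 in all libraries. Replicate 3 of both groups stood apart, holding the highest sums of these 4 lists. The list of smooth muscle and pericyte markers moved with the genes described here: 4 of its 6 genes fell with the block and 0 rose, and its sum was 613.2 to 651.3 CPM in control against 514.8 to 539.4 CPM in DKK1 samples, with no overlap. Its part in the results was not tested; 3 of its genes (Myh11, Des and Lmod1) also stand in the smooth muscle contractile list used at the end. In bulk RNA, fewer cells of a type and less RNA per cell cannot be told apart.

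Per transcript length, the 2 non-muscle actins were the most abundant of the 39 genes in control cells. Actb, which encodes beta-actin, stood at 3386 ± 112 CPM per kb of its principal annotated transcript, and Actg1, which encodes gamma-actin, at 2479 ± 117 CPM per kb (SD, n = 3 each). The tropomyosin gene Tpm1 at 1336 CPM per kb, the profilin gene Pfn1 at 1232 and the myosin light chain gene Myl6 at 1004 came next. At the other end were the membrane linker gene Ezr at 15.5 CPM per kb and the paxillin gene Pxn at 22.5. The heavy chain Myh9 was 444.6 ± 5.33 CPM per kb and its relative Myh10 87.8 ± 4.51 CPM per kb. Lengths come from the annotation, not from the isoforms these cells use, so the order of close neighbours is uncertain.

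**Figure D2:**
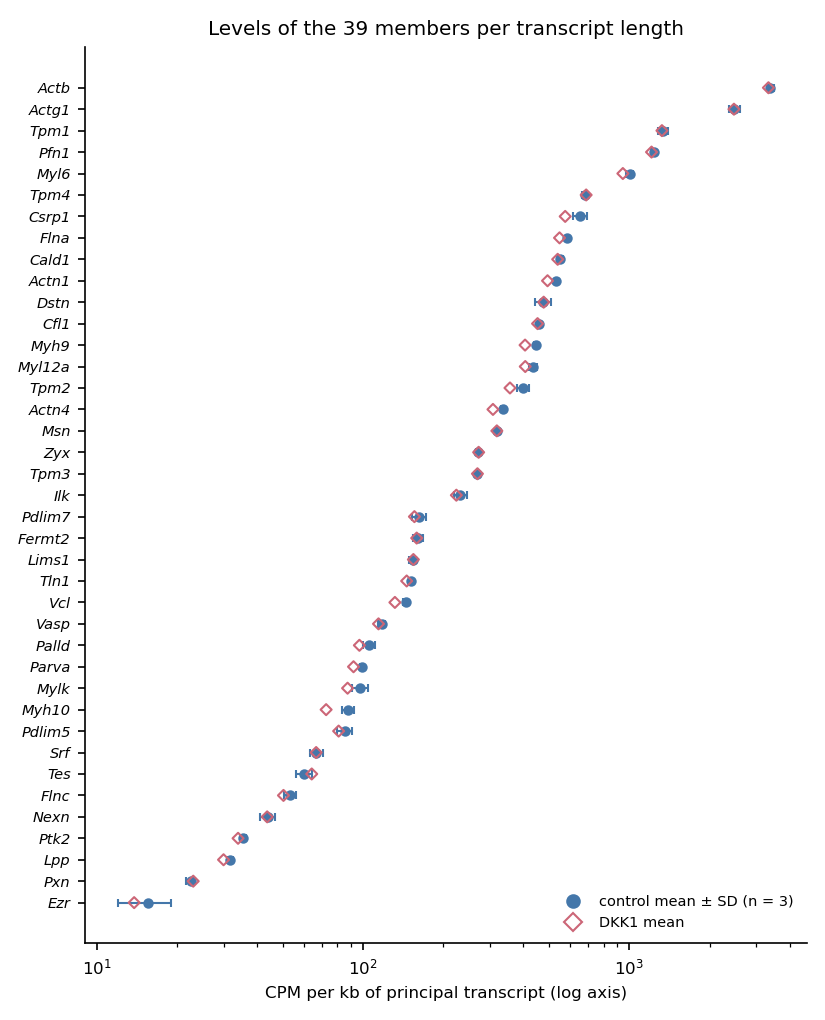
Level of the 39 genes per kb of principal transcript (log x axis); filled circles are control means with the SD of 3 samples, and open diamonds are DKK1 means. Levels span from 15.5 (Ezr) to 3386 (Actb) CPM per kb in control cells, and the diamond of Myh10 lies visibly left of its circle.

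Actin itself was not called in either fit. Actb (ENSMUSG00000029580, chr5:142903115-142906754, minus strand) measured 6441, 6323 and 6740 CPM in control replicates 1 to 3 and 6117, 6133 and 6918 CPM in DKK1 replicates 1 to 3. The groups overlapped, and in pair 3 the DKK1 sample was the higher one. For Actb the log2 fold change was -0.03 (unblocked edgeR fit: SE 0.05, adjusted p = 0.895; blocked fit: SE 0.02, adjusted p = 0.401). Actg1 (ENSMUSG00000062825, chr11:120345690-120348542, minus strand) measured 4716, 4697 and 5102 CPM in control and 4580, 4754 and 5130 CPM in DKK1 samples, with overlap and a higher DKK1 sample in pairs 2 and 3. For Actg1 the log2 fold change was -0.01 (unblocked edgeR fit: SE 0.05, adjusted p = 0.975; blocked fit: SE 0.02, adjusted p = 0.784). Per length, Actb made up 57.7% ± 0.404 of the sum of both genes in control and 57.4% ± 0.586 in DKK1 samples (SD, n = 3 each; exact permutation test, two-sided, p = 0.6). The expected counts of both genes were not whole in any library, as happens where reads fit several similar loci, so these levels are uncertain.

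Of the 4 tropomyosins, coiled coils that lie along the filament and set which proteins reach it, only Tpm2 was called with the block. Without it 0 were called by edgeR, DESeq2 or limma-voom, and Tpm2 alone had an unadjusted edgeR p under 0.05. Tpm2 (ENSMUSG00000028464, chr4:43514711-43523765, minus strand) measured 811.8, 810.7 and 889.5 CPM in control and 694.8, 726.3 and 819.7 CPM in DKK1 samples. DKK1 replicate 3 overlapped the lower control samples, but each DKK1 sample was below the same-numbered control, at 85.6%, 89.6% and 92.2% of it. For Tpm2 the log2 fold change was -0.17 (unblocked edgeR fit: SE 0.06, adjusted p = 0.346; blocked fit: SE 0.02, adjusted p = 0.00013). Per length, Tpm2 took 14.6%, 14.7% and 15.3% of the sum of the 4 tropomyosins in control and 12.8%, 13.5% and 14.1% in DKK1 samples. These shares did not overlap (two-sided exact permutation p = 0.1, which is the lowest that 3 samples against 3 allow). Tpm1, Tpm3 and Tpm4 had blocked log2 fold changes of -0.02 to 0.01 and adjusted p-values of 0.589 or more. The share of Tpm1 was 49.8% ± 0.985 in control and 50.2% ± 1.12 in DKK1 samples (SD, n = 3 each, exact permutation test, two-sided, p = 0.6). That test does not use the replicate numbers. By number the Tpm1 share was 50.6%, 48.7% and 50.1% in control and 51.2%, 49.0% and 50.5% in DKK1 samples, higher after DKK1 in each pair.

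Non-muscle myosin II is a hexamer of heavy chains, essential light chains and regulatory light chains that pulls on actin filaments once its regulatory chain is phosphorylated. Of the 6 genes of this group, 5 fell with the block and Cald1 was not called. Myh10, the heavy chain of myosin IIB (ENSMUSG00000020900, chr11:68691559-68816632, plus strand), measured 664.3, 724.9 and 663.8 CPM in control and 558.1, 591.6 and 546.9 CPM in DKK1 samples. The groups were well apart, and the DKK1 samples stood at 84.0%, 81.6% and 82.4% of their controls. The log2 fold change of -0.28 was the largest fall among the 39 genes and the only call among them in the unblocked edgeR fit described above (unblocked fit: SE 0.05, adjusted p = 0.0439; blocked fit: SE 0.02, adjusted p = 6.29e-07). Other unblocked fits also called Myh10, and among the other 38 genes DESeq2 called Myh9, Actn1, Actn4, Flna, Vcl and Csrp1, limma-voom called Myh9, and edgeR with no low-count filter called Csrp1. The unblocked edgeR call of Myh10 did not survive leaving out any single sample, with adjusted p-values of 0.0583 to 0.181 and log2 fold changes of -0.32 to -0.23 over the 6 fits.

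Myh9, the heavy chain of myosin IIA and the more abundant of the pair (ENSMUSG00000022443, chr15:77760587-77842175, minus strand), measured 3260, 3335 and 3320 CPM in control and 2986, 3017 and 3042 CPM in DKK1 samples. All DKK1 samples were below all controls. For Myh9 the log2 fold change was -0.14 (unblocked edgeR fit: SE 0.03, adjusted p = 0.0631; blocked fit: SE 0.02, adjusted p = 5.67e-05). Per length, Myh10 made up 16.3%, 17.2% and 16% of the 2 heavy chains in control and 15.1%, 15.8% and 14.6% in DKK1 samples. These shares did not overlap (16.5% ± 0.624 against 15.2% ± 0.603, SD, n = 3 each; two-sided exact permutation p = 0.1, the lowest the design allows). Expected counts of Myh9 and Myh10 were not whole in any library.

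The light chain genes Myl6 and Myl12a and the kinase gene Mylk were lower in every pair. Myl6, the essential light chain (ENSMUSG00000090841, chr10:128490860-128494145, minus strand), measured 666.9, 648.3 and 687.5 CPM in control and 617.4, 615.1 and 652.8 CPM in DKK1 samples, with overlap only between the highest DKK1 and the lowest control sample. For Myl6 the log2 fold change was -0.09 (unblocked edgeR fit: SE 0.03, adjusted p = 0.371; blocked fit: SE 0.02, adjusted p = 0.00581). Myl12a, a regulatory light chain (ENSMUSG00000024048, chr17:70993656-71002878, minus strand), measured 829.1, 822.7 and 874.2 CPM in control and 748.1, 773.0 and 839.8 CPM in DKK1 samples, where only replicate 3 reached into the control range. For Myl12a the log2 fold change was -0.10 (unblocked edgeR fit: SE 0.05, adjusted p = 0.475; blocked fit: SE 0.02, adjusted p = 0.00503). Myl12a has exons that overlap those of its near-identical neighbour Myl12b in the annotation and its expected counts were not whole, so the split of reads between them is uncertain. Mylk, the myosin light chain kinase (ENSMUSG00000022836, chr16:34745210-35002420, plus strand), measured 823.6, 723.6 and 738.5 CPM in control and 735.2, 645.5 and 671.1 CPM in DKK1 samples. Replicate 1 was the highest of both groups, and the DKK1 samples stood at 89.3%, 89.2% and 90.9% of their controls. For Mylk the log2 fold change was -0.16 (unblocked edgeR fit: SE 0.06, adjusted p = 0.38; blocked fit: SE 0.02, adjusted p = 5.68e-05). Without control replicate 1 the unblocked log2 fold change of Mylk was -0.10. Caldesmon, encoded by Cald1 and an inhibitor of the myosin motor on filaments, had a blocked log2 fold change of -0.04 (SE 0.02) and was not called (edgeR adjusted p = 0.262), except without replicate 1 of both groups (blocked fit, adjusted p = 0.0387).

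**Figure D3:**
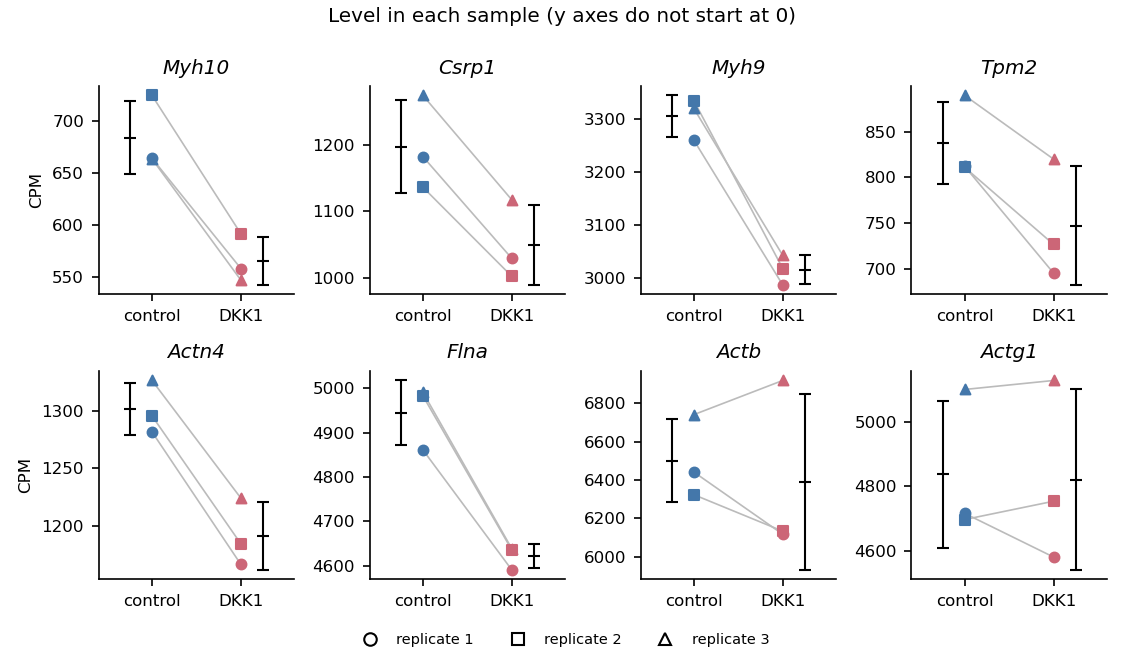
CPM in each sample (y axis, not starting at 0) for 6 genes called lower with the block and for the 2 non-muscle actins; gray lines join same-numbered samples, and black bars are mean ± SD of 3 samples. Every line falls from Myh10 to Flna, with DKK1 samples at 81.6% to 94.4% of their controls, while those of Actb and Actg1 go both ways.

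All 5 crosslinkers fell with the block. Without it 0 were called by edgeR, 4 had an unadjusted edgeR p under 0.05 (Actn1, Actn4, Flna and Palld), and DESeq2 called 3 lower: Actn1 (adjusted p = 0.0352), Actn4 (0.0109) and Flna (0.0493). Alpha-actinins hold antiparallel filaments together in stress fibers. Actn1 (ENSMUSG00000015143, chr12:80167547-80260371, minus strand) measured 2007, 1953 and 2001 CPM in control and 1877, 1807 and 1834 CPM in DKK1 samples, without overlap. For Actn1 the log2 fold change was -0.12 (unblocked edgeR fit: SE 0.03, adjusted p = 0.139; blocked fit: SE 0.02, adjusted p = 0.00035). Actn4 (ENSMUSG00000054808, chr7:28893248-28962340, minus strand) measured 1282, 1296 and 1327 CPM in control and 1166, 1184 and 1224 CPM in DKK1 samples, also without overlap. For Actn4 the log2 fold change was -0.13 (unblocked edgeR fit: SE 0.03, adjusted p = 0.111; blocked fit: SE 0.02, adjusted p = 0.000148).

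Filamins join filaments at wide angles and bind integrin tails. Flna (ENSMUSG00000031328, chrX:74223461-74249820, minus strand), the more abundant filamin, measured 4861, 4983 and 4991 CPM in control and 4590, 4635 and 4638 CPM in DKK1 samples. The groups did not overlap, and each DKK1 sample stood at 92.9% to 94.4% of its control. For Flna the log2 fold change was -0.10 (unblocked edgeR fit: SE 0.03, adjusted p = 0.151; blocked fit: SE 0.01, adjusted p = 0.0005). Flnc, the filamin best known from muscle (ENSMUSG00000068699, chr6:29433256-29461883, plus strand), measured 458.9, 503.8 and 464.0 CPM in control and 441.5, 459.7 and 446.0 CPM in DKK1 samples, with a narrow overlap. For Flnc the log2 fold change was -0.09 (unblocked edgeR fit: SE 0.04, adjusted p = 0.549; blocked fit: SE 0.02, adjusted p = 0.0198), and it was not called with the block once each library's trend on GC content and length was removed (-0.04, adjusted p = 0.327), with DESeq2 (-0.09, adjusted p = 0.0951) or without replicate 2 of both groups (-0.06, adjusted p = 0.315). Without control replicate 2 the unblocked log2 fold change of Flnc was -0.04. Palld encodes palladin, a stress fiber scaffold (ENSMUSG00000058056, chr8:61511433-61902690, minus strand), and measured 386.9, 352.1 and 384.4 CPM in control and 354.9, 326.2 and 354.8 CPM in DKK1 samples. Replicate 2 was the lowest of both groups, and each DKK1 sample stood at 91.7% to 92.7% of its control. For Palld the log2 fold change was -0.12 (unblocked edgeR fit: SE 0.05, adjusted p = 0.387; blocked fit: SE 0.02, adjusted p = 0.00118).

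Of the 7 genes that link integrins to filaments, vinculin and alpha-parvin fell with the block. Vcl, which encodes the vinculin that reinforces talin under load (ENSMUSG00000021823, chr14:20929398-21033676, plus strand), measured 749.5, 781.1 and 754.9 CPM in control and 665.0, 693.1 and 720.9 CPM in DKK1 samples. The groups did not overlap, and DKK1 replicate 3 came closest to its control, at 95.5%. For Vcl the log2 fold change was -0.14 (unblocked edgeR fit: SE 0.04, adjusted p = 0.183; blocked fit: SE 0.02, adjusted p = 0.00105). Parva (ENSMUSG00000030770, chr7:112427505-112591692, plus strand), the actin-binding arm of the ILK complex, measured 432.9, 445.4 and 439.2 CPM in control and 400.5, 417.2 and 411.1 CPM in DKK1 samples, without overlap. For Parva the log2 fold change was -0.11 (unblocked edgeR fit: SE 0.03, adjusted p = 0.245; blocked fit: SE 0.02, adjusted p = 0.00288). The other members of that complex, Ilk and Lims1 (PINCH1), had blocked log2 fold changes of -0.05 (edgeR adjusted p = 0.124) and 0.00 (adjusted p = 0.945). Tln1, which encodes the talin that activates integrins, was lower without overlap, at 1268 ± 11.2 CPM in the control group and 1222 ± 14.4 CPM after DKK1 (SD, n = 3 each), but was not called (edgeR adjusted p = 0.523; with the block 0.0617); with the block it was called lower by limma-voom (adjusted p = 0.0279) and by edgeR without replicate 1 of both groups (0.00564). Fermt2 (kindlin-2) and Nexn (nexilin) were not called, with blocked log2 fold changes of -0.02 and -0.01.

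**Figure D4:**
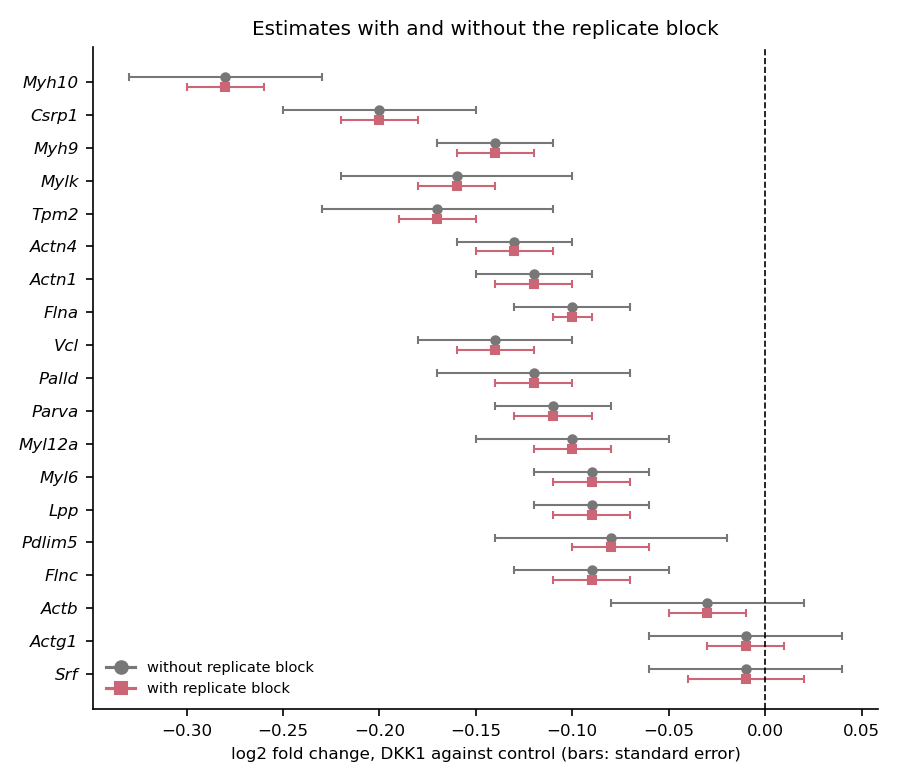
Log2 fold change of 19 genes (x axis, bars are standard errors) without the replicate block (gray circles) and with it (red squares). To 2 decimals the estimates are the same in both fits, and the bars are shorter with the block; Myh10 lies farthest from 0, at -0.28, and Actb, Actg1 and Srf lie at -0.03 to -0.01.

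The 9 signaling and scaffold proteins of adhesions went both ways. Csrp1, a LIM protein of actin filaments (ENSMUSG00000026421, chr1:135720061-135752232, plus strand), measured 1182, 1136 and 1274 CPM in control and 1029, 1002 and 1117 CPM in DKK1 samples. The groups did not overlap, and the pairs agreed closely, at 87.0%, 88.2% and 87.7% of control. For Csrp1 the log2 fold change was -0.20 (unblocked edgeR fit: SE 0.05, adjusted p = 0.165; blocked fit: SE 0.02, adjusted p = 6.08e-06). Lpp, a relative of zyxin (ENSMUSG00000033306, chr16:24393507-24992578, plus strand), measured 490.8, 502.1 and 476.1 CPM in control and 464.9, 460.7 and 459.4 CPM in DKK1 samples, without overlap. For Lpp the log2 fold change was -0.09 (unblocked edgeR fit: SE 0.03, adjusted p = 0.358; blocked fit: SE 0.02, adjusted p = 0.0136). Pdlim5, a PDZ and LIM protein that binds alpha-actinin (ENSMUSG00000028273, chr3:142239590-142395696, minus strand), measured 401.7, 426.2 and 456.6 CPM in control and 377.2, 400.6 and 438.9 CPM in DKK1 samples, with wide overlap and a lower DKK1 sample in each pair. For Pdlim5 the log2 fold change was -0.08 (unblocked edgeR fit: SE 0.06, adjusted p = 0.71; blocked fit: SE 0.02, adjusted p = 0.0153). The blocked call of Pdlim5 was lost with DESeq2 (log2 fold change -0.09, adjusted p = 0.113) and without replicate 2 of both groups (-0.08, adjusted p = 0.196). Its unblocked log2 fold change was -0.04 without control replicate 3 or DKK1 replicate 1, -0.13 without control replicate 1 and -0.14 without DKK1 replicate 3.

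Tes, the gene of the LIM protein testin, was the single gene of the 39 that rose with the block. It measured 143.1, 138.6 and 157.6 CPM in control and 155.8, 149.6 and 163.7 CPM in DKK1 samples, which overlapped, with DKK1 samples at 108.9%, 108.0% and 103.9% of their controls. For Tes the log2 fold change was 0.09 (unblocked edgeR fit: SE 0.05, adjusted p = 0.629; blocked fit: SE 0.03, adjusted p = 0.0394), and the call was lost when the GC and length trend was removed (log2 fold change 0.08, adjusted p = 0.0561), with DESeq2 (0.09, adjusted p = 0.592) and without replicate 1 (0.08, adjusted p = 0.147) or replicate 2 (0.09, adjusted p = 0.266) of both groups. Leaving out single samples moved the unblocked log2 fold change of Tes to 0.05 (control replicate 2), 0.06 (DKK1 replicate 3) and 0.14 (control replicate 3). The kinase gene Ptk2 (focal adhesion kinase), Pxn, Zyx (zyxin), Vasp and Pdlim7 were not called, with blocked log2 fold changes of -0.07 to 0.03 and edgeR adjusted p-values of 0.0993 or more. Ptk2 was called lower with the block without replicate 3 of both groups (adjusted p = 0.0352). The level of Zyx was 858.4 ± 12.1 CPM in the control group and 865.6 ± 7.93 CPM after DKK1 (SD, n = 3 each).

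Filament turnover genes were not called in either fit. Cfl1 (cofilin-1) and Dstn (destrin), which sever filaments, and Pfn1, which delivers actin monomers, had blocked log2 fold changes of -0.03, -0.01 and -0.03 (edgeR adjusted p = 0.369 or more). Of the ERM proteins, which tie filaments to the membrane, Msn (moesin) stood at 1223 ± 13.1 CPM in the control group and 1221 ± 22.4 CPM after DKK1 (SD, n = 3 each). Ezr (ezrin), far lower, measured 49.3, 37.9 and 59.9 CPM in control and 39.7, 34.1 and 56.7 CPM in DKK1 samples; replicate 3 was the highest of both groups. It fell with the block (log2 fold change -0.18, SE 0.05, edgeR adjusted p = 0.0242) and not without it (adjusted p = 0.83). The blocked call of Ezr was lost with DESeq2 (log2 fold change -0.19, adjusted p = 0.356) and without replicate 1 (-0.12, adjusted p = 0.164) or replicate 2 (-0.19, adjusted p = 0.136) of both groups. Its unblocked log2 fold change was -0.02 without control replicate 3, -0.03 without DKK1 replicate 2, -0.34 without control replicate 2 and -0.41 without DKK1 replicate 3. Replicate 3 was also the highest for the summed epithelial markers given above, and their part in the level of Ezr was not tested.

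Srf, the transcription factor that binds CArG boxes in many actin genes (ENSMUSG00000015605, chr17:46548329-46556175, minus strand), measured 179.4, 163.4 and 181.7 CPM in control and 172.3, 165.8 and 184.4 CPM in DKK1 samples. The groups overlapped fully, and the log2 fold change was -0.01 (unblocked edgeR fit: SE 0.05, adjusted p = 0.976; blocked fit: SE 0.03, adjusted p = 0.881). Because a share of the genes moved together, promoters were searched for the CArG box, which is CC, then 6 bases that are A or T, then GG, and reads alike on both strands. RefSeq promoters (GRCm38.p6, from 250 bases before to 50 after each start) were found for 34 of the 39 genes, in 46 windows. A CArG box was present in 5 of the 46 windows (10.9%) and in 1.63% of all 32851 windows. These 5 belong to 2 genes that fell with the block, Vcl and Myl6, and to 3 that were not called, Actg1, Fermt2 and Srf itself. By call, the box was in 2 of 23 windows (8.7%) of genes that fell and in 3 of 22 windows (13.6%) of genes not called. The stretches before the start are shown to let the boxes, in capitals, be compared across called and uncalled genes:
Vcl, chr14:20929148-20929225, plus strand: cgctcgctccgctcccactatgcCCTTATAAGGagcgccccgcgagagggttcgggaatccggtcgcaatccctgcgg
Myl6, chr10:128493010-128493104, minus strand: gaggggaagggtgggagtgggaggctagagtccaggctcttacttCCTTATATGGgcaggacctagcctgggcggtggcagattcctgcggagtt
Actg1, chr11:120348531-120348630, minus strand: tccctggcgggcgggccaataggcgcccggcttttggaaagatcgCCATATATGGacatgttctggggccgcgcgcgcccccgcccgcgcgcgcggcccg
Fermt2, chr14:45530215-45530314, minus strand: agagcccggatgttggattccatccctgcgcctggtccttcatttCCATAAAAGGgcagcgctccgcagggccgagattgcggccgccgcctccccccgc
Srf, chr17:46556170-46556289, minus strand: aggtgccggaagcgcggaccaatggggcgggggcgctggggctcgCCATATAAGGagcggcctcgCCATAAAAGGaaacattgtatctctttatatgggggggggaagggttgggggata

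The box begins 227 bases before the start in Vcl, 204 in Fermt2, 90 in Actg1 and 50 in Myl6, and Srf holds 2 boxes, beginning 82 and 62 bases before its start.

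The hexamer GGAATG, searched on both strands (as GGAATG or CATTCC), is a core of sites known for TEAD factors, the partners of YAP and TAZ. It was present in 13 of the 46 windows (28.3%) and in 14.7% of all windows. By call, it was in 10 of 23 windows (43.5%) of genes that fell with the block and in 3 of 22 windows (13.6%) of genes not called. Some genes have more than 1 window: the 23 come from 16 genes and the 22 from 17. The motif was chosen with the calls known, so these shares are descriptions of short windows and no test of a difference. Of the genes not called, Cald1, Pfn1 and Tpm1 hold the hexamer in their windows. Among the genes called lower in all 9 fits that used the block, 5 hold it before their start, and only these 5 are shown. RefSeq starts, which can lie inside the GENCODE gene given above, set these windows. The stretches are shown with the hexamer in capitals:
Myh10, chr11:68691878-68691914, plus strand: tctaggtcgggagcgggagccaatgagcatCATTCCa
Mylk, chr16:34784762-34784827, plus strand: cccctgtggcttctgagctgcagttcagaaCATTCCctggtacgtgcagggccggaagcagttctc
Actn4, chr7:28962513-28962578, minus strand: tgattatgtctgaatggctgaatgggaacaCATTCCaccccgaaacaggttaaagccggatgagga
Flna, chrX:74246645-74246710, minus strand: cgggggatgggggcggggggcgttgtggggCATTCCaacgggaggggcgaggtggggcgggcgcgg
Palld, chr8:61760141-61760206, minus strand: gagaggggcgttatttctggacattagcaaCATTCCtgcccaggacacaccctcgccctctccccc

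Other genes of the same machinery were examined as a list of 98, all tested. Without the block 1 was called, Myo1c, a membrane-bound myosin I, which fell from 935.9 ± 9.11 to 819.4 ± 18.1 CPM (SD, n = 3 each; log2 fold change -0.20, SE 0.03, edgeR adjusted p = 0.0231). With the block 19 fell and 2 rose, against 4.46% and 4.96% of all tested genes, and the median log2 fold change was -0.04. In the Arp2/3 complex and its activators, which grow branched networks, 1 of 11 fell (Arpc2), and of the formins, which grow straight filaments, 0 of 7 were called. Of the turnover and capping proteins 1 of 15 fell (Gsn, gelsolin). Of 35 further focal adhesion and LIM proteins 8 fell and 1 rose, and of 10 crosslinkers and side binders 4 fell and 1 rose. Tns1 (tensin-1) fell with a blocked log2 fold change of -0.22 (edgeR adjusted p = 2.96e-06) and Myl12b, the neighbour of Myl12a, with -0.19 (adjusted p = 0.00283). Enah, which lengthens filaments beside Vasp, rose with 0.15 (adjusted p = 0.000598), and Tagln2 with 0.07 (adjusted p = 0.0375). Of 6 SRF cofactors, 1 was called with the block, the muscle coactivator Myocd at 40 to 68 counts per library, which fell from 2.56 ± 0.528 to 1.63 ± 0.383 CPM (SD, n = 3 each; edgeR adjusted p = 0.04; without the block 0.371).

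Smooth muscle contractile genes form a related group. Of 10 such genes 9 fell with the block and 0 rose, against 4.46% and 4.96% of all tested genes, with a median log2 fold change of -0.20, beside -0.06 for the 39; whether the 2 lists differ was not tested. Among them Des fell with a blocked log2 fold change of -0.45 (edgeR adjusted p = 1.64e-05), Myh11 with -0.30 (adjusted p = 8.2e-07; without the block 0.00387, the 1 call of the list) and Actg2 with -0.27 (adjusted p = 2.88e-06). Acta2, smooth muscle alpha-actin, fell with -0.21 (adjusted p = 4.16e-06), whereas the 2 non-muscle actins were not called.

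**Figure D5:**
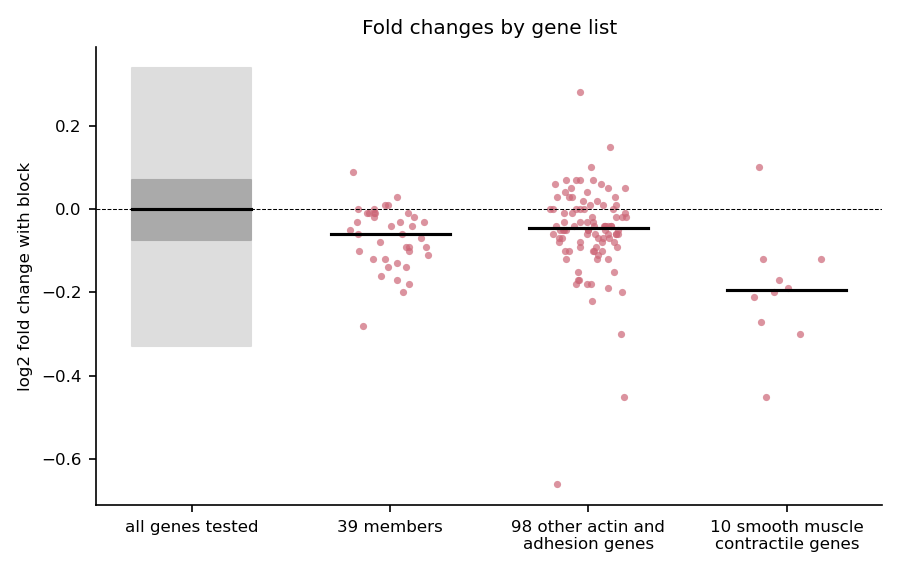
Log2 fold change with the replicate block (y axis) for the 39 genes, 98 other actin and adhesion genes and 10 smooth muscle contractile genes (dots, black lines are medians); in the first column, the dark and light gray boxes run from the 25th to the 75th and from the 5th to the 95th percentile of all tested genes. The medians lie at -0.06, -0.04 and -0.20, and all of the 39 lie between the 5th and 95th percentiles of all tested genes.

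Tpm2, Myh9, Myh10, Mylk, Actn1, Actn4, Flna, Palld and Csrp1 were called lower in all 9 fits with the block, which include other tools and the removal of each replicate number. The blocked calls of Myl6 (log2 fold change -0.10, adjusted p = 0.0872), Myl12a (-0.11, 0.0869), Vcl (-0.12, 0.0611), Parva (-0.11, 0.0649) and Lpp (-0.07, 0.25) were lost without replicate 2 of both groups, and that of Lpp also with DESeq2 (-0.09, 0.0617). Without replicate 2 only the 9 genes above were called lower, against 18 without replicate 1 and 18 without replicate 3; of all tested genes 1.61%, 4.31% and 3.14% were called lower in these fits, which keep 2 samples a group. With the GC and length trend removed, 16 of the 17 were also called lower, against 4.33% of all tested genes. Of the 39 genes, 14 share exon sequence with a gene on the opposite strand, 7 of them among those that fell, and whether counting used strand is not given in the sources used here.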

How the data were processed

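RNA from 3 control and 3 DKK1-treated fibroblast samples was used as RSEM expected counts per gene, 1 deposited column per sample, not scaled by the authors. The submitters' processing notes name STAR, RSEM, GRCm38 and edgeR 4.2.1; the annotation release and strand setting are not given in the sources used here. Of 45706 gene identifiers, 45143 (98.8%) were paired with symbols by a supplied table; positions and lengths are from GENCODE M21 (GRCm38).

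Counts were rounded and tested with edgeR 4.0.16 (R 4.3.3): filterByExpr (minimum count 10; 14635 genes), TMM factors, the quasi-likelihood test, Benjamini-Hochberg adjustment over all genes. CPM are relative to the library total; 3 counts equal 0.0864 to 0.133 CPM. Standard errors are the absolute log2 fold change over the root of F. Same-numbered samples deviated together, with correlations across genes of 0.27, 0.23 and 0.41 for numbers 1, 2 and 3 against -0.28 to 0.08 for crossed numbers, so the numbers in the titles, whose meaning the labels do not state, were also used as a block (biological coefficient of variation 6.99% without and 2.3% with it). Alternatives also used DESeq2 1.42.0 and limma 3.58.1. Fits were tested on simulated data.

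The genes and lists were chosen with earlier results of these data known. Every sample's value is given for the 16 called genes with the smallest blocked adjusted p plus Actb, Actg1, Vcl and Srf. Of the other lists at most 4 called genes in each direction are named with values. Tes, Ezr, Zyx, Tln1, Msn, Arpc2, Gsn, the fibroblast and leukocyte markers given with values and the GGAATG hexamer were chosen after their values were seen. The result of 1 subgroup of the other actin and adhesion genes is not reported here.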

Additional observations from a re-analysis of the deposited data

How the results depend on the processing

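With the replicate number as a block, all genes called went from 131 to 1379 and genes of the 39 called lower from 1 to 17. Genes of the 39 called higher went from 0 to 1, other actin and adhesion genes called from 1 to 21, and smooth muscle genes from 1 to 9. Without the block, all genes called were 329 with no low-count filter and 289 with DESeq2. Genes of the 39 called lower were then 2 with no filter, 7 with DESeq2 and 2 with limma-voom. Other actin and adhesion genes called were 2 with no filter, 3 with DESeq2 and 2 after GC and length correction, and smooth muscle genes 2 with no filter and 3 with DESeq2. Leaving out each sample in turn gave 36 to 139 genes in all, 0 to 0 of the 39, 0 to 1 other actin and adhesion genes and 1 to 2 smooth muscle genes.

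Fits that combined the block with another tool, scaling or depth, and those that left out a replicate number, were chosen after seeing the data. With the replicate block, all genes called were 1340 after GC and length correction, 551 with DESeq2, 1391 with limma-voom, 1374 with library totals and 1315 at equal depth, and 1312, 612 and 1059 without replicate 1, 2 or 3 of both groups. In the same order, genes of the 39 called lower were 16, 13, 18, 17, 17, 18, 9 and 18, with 1 called higher under limma-voom, library totals, equal depth and without replicate 3. Other actin and adhesion genes called were 23, 9, 24, 21, 20, 21, 8 and 16, and smooth muscle genes 9, 8, 9, 9, 9, 9, 8 and 9. The median log2 fold change of the 39, -0.058, was -0.053 with library totals, -0.051 after GC and length correction, -0.05 after that correction in the blocked fit, -0.053 with library totals and the block, -0.053 without replicate 3 of both groups and -0.084 to -0.031 over the fits that left out a single sample.

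The sign turned for 10 of the 39, none of them called in any fit. Tpm3 was 0.00232 with library totals, 0.000171 with no filter, 0.00247 with library totals and the block and 0.000458 without replicate 3 of both groups. Lims1 was -0.0252 after GC and length correction and -0.0248 with the block added, and Srf 0.013 and 0.014. Nexn was 0.000766 at equal depth with the block and 0.0202 without replicate 3 of both groups. Dstn was 0.00223 with library totals, and 0.0148 and 0.00359 without replicates 1 and 2 of both groups. Without replicate 1 of both groups, Actg1 was 0.00788 and Srf 0.0163. Leaving out single samples gave -0.0538 to 0.0242 for Actg1, -0.0518 to 0.0138 for Tpm1, -0.0133 to 0.00308 for Tpm3, -0.00702 to 0.0381 for Tpm4, -0.0555 to 0.019 for Fermt2, -0.0154 to 0.0223 for Lims1, -0.0622 to 0.0239 for Nexn, -0.00383 to 0.0175 for Zyx, -0.0882 to 0.0505 for Dstn and -0.0556 to 0.0201 for Srf. The cause of these shifts was not tested.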
